A study of Arabidopsis thaliana with 20 samples.

Results

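JAZ1 to JAZ10 are 10 of the genes for JASMONATE ZIM-DOMAIN proteins, the repressors of the jasmonate response in Arabidopsis thaliana. They were taken by name, with no measured value in the rule, and they are 10 of 37899 annotated nuclear genes, of which 27444 code for proteins. Their occupancy was read from 12 peak lists of ChIP-seq (chromatin immunoprecipitation followed by sequencing) with an antibody against GFP in seedlings aged 14 days. The lists form 6 groups of 2 replicates, and 8 further samples of the series (spike-in ChIP-seq and MNase-seq) were not analysed here.

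The tagged proteins were BRM, the ATPase of one class of SWI/SNF complexes, and its partner subunits BCL7A and BCL7B. According to the paper, BCL7A and BCL7B are also present in the complexes of other ATPases, SYD, MINU1 and MINU2. SWI/SNF complexes use ATP to move or evict nucleosomes. Each fusion was driven by its native promoter in a mutant of its own gene, so the groups named BCL7A and BCL7B were pBCL7A:BCL7A-GFP in bcl7a and pBCL7B:BCL7B-GFP in bcl7b. Plants named BCL7A brm-1 and BCL7B brm-1 carried brm-1, a null allele of BRM, in addition. The BRM group was pBRM:BRM-GFP in brm-1, and the BRM bcl7ab group carried the bcl7a and bcl7b mutations as well. No group was therefore wild type, and every library came from a transgenic line. Whole seedlings mix all cell types, so fewer cells with an occupied gene and less protein per gene cannot be told apart.

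JAZ proteins bind MYC2 and related transcription factors and recruit the TOPLESS corepressor, for most members through the adaptor NINJA. The hormone jasmonoyl-isoleucine makes the F-box protein COI1 bind JAZ proteins, which are then degraded, and MYC2 is released. MYC2 in turn activates many JAZ genes, commonly through the G-box, which forms a negative feedback loop. Within the family, JAZ1, JAZ2, JAZ5 and JAZ6 are close relatives, as are JAZ3, JAZ4 and JAZ9, and JAZ7 and JAZ8 are short repressors with an EAR motif of their own. JAZ10 is known for splice forms that resist degradation.

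The 10 genes are placed as in the RefSeq annotation of TAIR10.1, whose nuclear coordinates are those of the TAIR10 build of the lists. JAZ1 (AT1G19180) lies at chr1:6621777-6623668 on the plus strand. JAZ2 (AT1G74950, TIFY10B in RefSeq) lies at chr1:28148574-28150446 on the minus strand. JAZ3 (AT3G17860) lies at chr3:6119707-6123044, and JAZ4 (AT1G48500) at chr1:17931390-17934662, both on the plus strand. JAZ5 (AT1G17380) lies at chr1:5955155-5957511 and JAZ6 (AT1G72450) at chr1:27273968-27276562, both on the minus strand. JAZ7 (AT2G34600) lies at chr2:14573030-14573952, JAZ8 (AT1G30135) at chr1:10596352-10597341 and JAZ9 (AT1G70700, TIFY7 in RefSeq) at chr1:26654529-26657350, all on the plus strand. JAZ10 (AT5G13220) lies at chr5:4218786-4221077 on the plus strand. Positions below are distances of a peak's summit from the annotated gene start along the gene, negative upstream, and the gene start is the earliest start of any annotated transcript.

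The promoters share the motif of their known activator. The G-box, CACGTG, which reads alike on both strands, occurred within 1000 bp upstream of 8 of the 10 genes, against 14.8% of 27443 coding promoters of that length. It was not found in that window at JAZ4 or JAZ10. The related T/G-box, AACGTG on either strand, occurred there in 8 of the 10 (all but JAZ4 and JAZ7) against 23.8% of coding promoters. The windows shown run from 15 bases before the G-boxes within 250 bp of the median BCL7A and BCL7B summit to 15 bases past that summit or the last G-box, and none enters the gene. They show how close the motif lies to the summits, with G-box and T/G-box in capitals, 5′ to 3′ along the gene. JAZ10, the gene with the strongest BRM peak of the family, is shown by its last 100 bases before the start, which hold neither motif.
JAZ1 (chr1:6620918-6621077, plus strand): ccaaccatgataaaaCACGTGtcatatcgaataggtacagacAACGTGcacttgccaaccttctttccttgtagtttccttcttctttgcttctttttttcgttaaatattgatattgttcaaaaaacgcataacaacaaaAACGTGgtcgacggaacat
JAZ2 (chr1:28150462-28150527, minus strand): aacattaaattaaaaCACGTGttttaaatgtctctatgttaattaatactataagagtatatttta
JAZ3 (chr3:6119552-6119645, plus strand): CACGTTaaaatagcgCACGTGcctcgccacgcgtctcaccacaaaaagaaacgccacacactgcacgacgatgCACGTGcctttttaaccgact
JAZ5 (chr1:5957907-5958115, minus strand): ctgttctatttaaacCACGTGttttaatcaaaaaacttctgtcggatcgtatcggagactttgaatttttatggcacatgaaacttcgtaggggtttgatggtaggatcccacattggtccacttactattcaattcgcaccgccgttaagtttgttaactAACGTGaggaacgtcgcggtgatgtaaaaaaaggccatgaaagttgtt
JAZ6 (chr1:27276873-27277091, minus strand): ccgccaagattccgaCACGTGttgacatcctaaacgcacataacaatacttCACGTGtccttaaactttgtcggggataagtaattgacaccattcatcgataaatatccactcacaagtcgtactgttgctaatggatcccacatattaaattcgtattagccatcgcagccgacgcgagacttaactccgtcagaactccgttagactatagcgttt
JAZ7 (chr2:14572981-14573029, plus strand): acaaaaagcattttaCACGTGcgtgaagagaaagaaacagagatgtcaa
JAZ8 (chr1:10596327-10596351, plus strand): gaaaaaaacattttcCACGTGagag
JAZ10 (chr5:4218686-4218785, plus strand): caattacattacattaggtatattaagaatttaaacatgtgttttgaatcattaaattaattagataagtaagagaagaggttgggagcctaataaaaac

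Over the 4 BCL7A and BCL7B libraries, the G-box nearest to a summit lay a median of 33 bp from it at JAZ3, 53 bp at JAZ8, 55.5 bp at JAZ7 and 60 bp at JAZ2. The distance was 126.5 bp at JAZ1, 149 bp at JAZ6 and 175 bp at JAZ5, and 445.5 bp at JAZ9. At JAZ1 a T/G-box lay at the summit itself, with a median distance of 0.5 bp, and at JAZ5 one lay 29 bp from it. JAZ10 had motifs more than 1000 bp upstream, near a weaker peak. There a T/G-box at −1454 bp lay 19 bp from a summit and a G-box at −1273 bp lay 192.5 bp from one. Among all peaks of the BCL7A and BCL7B lists, 16.6% to 17.3% held a G-box in the 401 bp centred on the summit, and among BRM peaks 12.9% to 14.3%. These matches are a description of letters and not of bound factors.

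Each list held 14770 to 18870 nuclear peaks. The strength of a peak was its fold enrichment over background at the summit, given here as its percentile rank within its own list, so that 100 is the strongest peak of a list. The number of fragments stacked at the summit (pileup) and the background of the whole genome were recovered from the lists, and that background ranged from 15.7 to 30.9 fragments. At the summit, 93.7% to 97.8% of BRM peaks had this background, against 30.5% to 36.2% of BCL7A and BCL7B peaks. The other peaks were divided by a different one, so ranks of BRM and of BCL7A or BCL7B rest on unlike backgrounds. The BRM lists had been called with looser limits than the BCL7A and BCL7B lists and had a lowest −log10 q of 0.475 to 0.577 against 2.03 to 2.25, and a median peak spanned 799 to 841 bp in them but 519 to 542 bp in the others, so BRM was not tested against BCL7A or BCL7B. Lists from plants without GFP were not analysed here, and a gene without a listed peak is not shown to be unbound.

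BRM, BCL7A and BCL7B had peaks at nearly all JAZ genes, and JAZ4 was the exception. A BRM peak within 2 kb of the gene was present in both libraries at 10 of 10 genes, against 60.0% of all nuclear genes. The count was also 10 in BRM bcl7ab, where the share of all genes was 58.2%. It was 9 there with −log10 q of 5 or more, since the JAZ4 peaks had −log10 q of 1.51 and 4.77. The first of these values is below the lowest of the BCL7A and BCL7B lists. BCL7A and BCL7A brm-1 each had a peak in both libraries at 9 of 10 genes, against 66.8% and 69.0% of all genes. For BCL7B the count was 9 (65.0% of all genes) and for BCL7B brm-1 it was 8 (60.4% of all genes). Of coding genes alone, 66.0% to 78.3% had such a peak, depending on the group. JAZ4 had no peak in any of the 8 BCL7A and BCL7B lists, and JAZ8 had one in replicate 2 but not in replicate 1 of BCL7B brm-1.

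BRM peaks at the JAZ genes were among the strongest and widest of their lists. In BRM, 9 of the 10 genes had a percentile of 90 or more in both libraries, against 16.9% of the 22728 genes with a peak in both. In BRM bcl7ab, 7 of the 10 did, against 16.9% of 22062. A BRM peak of 3000 bp or more in both libraries was found at 7 of 10 JAZ genes, against 13.2% of such genes, and in BRM bcl7ab also at 7, against 13.9%. These limits were chosen after the values were seen, so the counts are a description with no test. Each count includes JAZ2, whose BRM summits lay past the gene, at 4055 and 3908 bp in BRM. With only summits within 2 kb of the start, 9 of the 10 JAZ genes had a BRM peak in both BRM libraries.

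JAZ10 carried the strongest BRM peak of the family, with percentiles of 99.9 and 99.9 and summit pileups of 320 and 331 fragments. JAZ1 followed with 99.4 and 98.7, JAZ6 with 99.0 and 98.8, and JAZ3 with 99.3 and 98.3. These values of JAZ1, JAZ6 and JAZ3 overlapped, whereas those of JAZ10 lay above them in both libraries. JAZ5 had 97.7 and 97.8, JAZ2 97.8 and 97.0 and JAZ9 97.4 and 96.9, all below JAZ3. JAZ2 overlapped both others, while JAZ5 lay above JAZ9. The JAZ2 values came from the summit past the gene end. The EAR-motif repressors JAZ7 (92.0 and 94.7) and JAZ8 (93.6 and 91.3) came next and overlapped each other. JAZ4, a close relative of JAZ3 and JAZ9, was last with 41.5 and 60.7.

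BCL7A and BCL7B peaks were mostly of middle to high rank and came in another order than BRM peaks, though their ranks rest on unlike backgrounds. In BCL7A the percentiles were 85.5 and 88.4 at JAZ3, 88.6 and 84.0 at JAZ5, 82.8 and 82.3 at JAZ6, and 79.3 and 74.1 at JAZ1. Only JAZ6 was separated from its neighbours on both sides in that order. They were 74.5 and 62.4 at JAZ7, 63.6 and 71.0 at JAZ10, 42.7 and 65.6 at JAZ8 and 43.9 and 55.4 at JAZ9, each overlapping the next. JAZ2, whose product takes part in stomatal immunity, was lowest at 37.4 and 38.0, below all others in both libraries. By summit pileup JAZ2 was not lowest, with 130 and 127 fragments against 61 and 76 at JAZ8. The JAZ median was 74.5 and 71.0 in the BCL7A libraries and 74.9 and 81.4 in those of BCL7B, against medians of 67.3, 67.0, 66.4 and 66.3 over all genes with a peak.

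**Figure D1:**
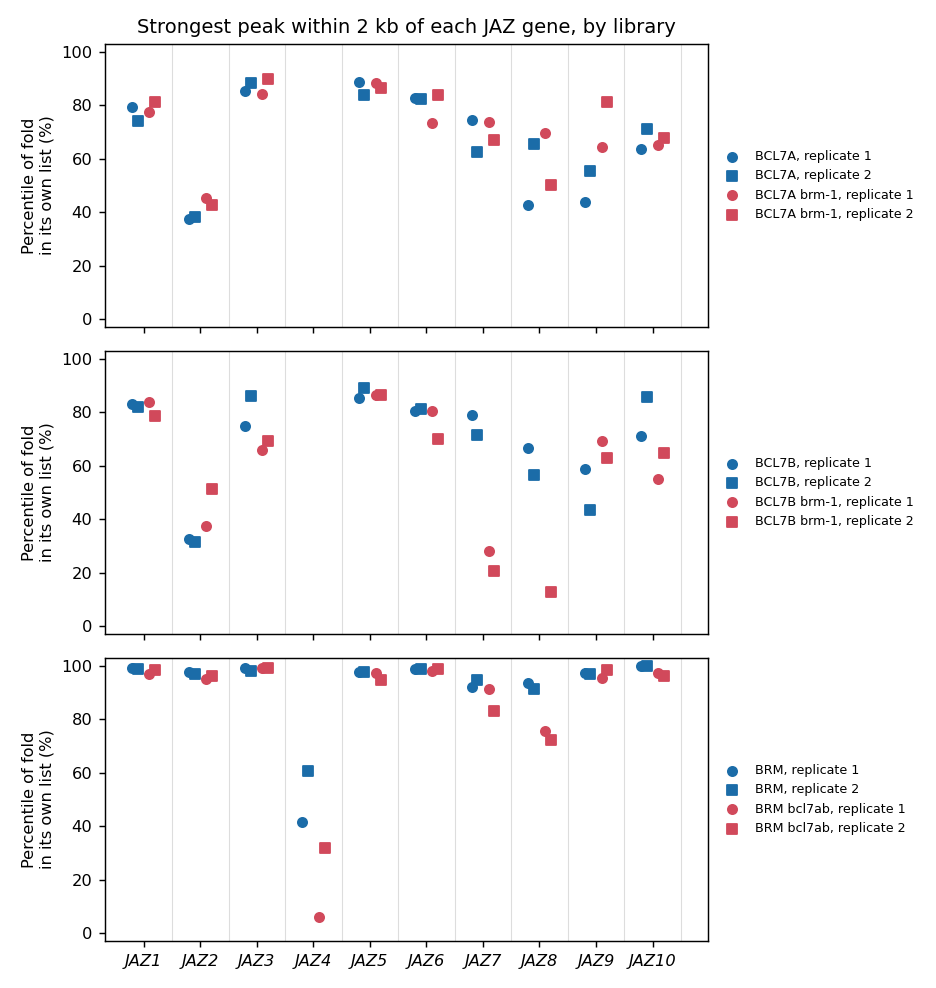
Percentile rank of fold enrichment, within its own list, of the strongest peak within 2 kb of each JAZ gene (y axis, percent), by gene (x axis). Each point is 1 library, blue without and red with the added mutation, circles for replicate 1 and squares for replicate 2. BRM points of 9 genes sit above 90 in the blue group, JAZ4 has no BCL7A or BCL7B point, and the red BCL7B points of JAZ7 sit at 28.2 and 20.7.

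Position along the gene differed between the members and between the proteins. In BCL7A and BCL7B without the added mutation, the strongest summits lay upstream at JAZ1 (−716 to −697 bp), JAZ5 (−424 to −358 bp), JAZ6 (−345 to −303 bp) and JAZ3 (−177 to −96 bp). At JAZ2 (−104 to 16 bp), JAZ7 (22 to 27 bp) and JAZ8 (−25 to 82 bp) they lay at the gene start. JAZ9 and JAZ10 stood apart, with their strongest summits at 3199 to 3232 bp, past the end of JAZ9, and at 1659 to 1712 bp, inside JAZ10. Both had a weaker peak near the start too. At JAZ10 it ranked at 39.4 and 20.7 in BCL7A (29 and 14 bp) and at 11.2 and 18.6 in BCL7B (31 and 128 bp). At JAZ9 it ranked at 41.7 and 42.6 in BCL7A (77 and 70 bp) and at 21.1 in BCL7B replicate 1 (87 bp), and BCL7B replicate 2 had no separate peak there. JAZ9 had a further peak inside the gene, at 1148 and 1156 bp in BCL7A and at 1139 and 1124 bp in BCL7B. It ranked at 18.1 and 11.3 in BCL7A and at 30.7 and 33.3 in BCL7B.

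Some of these summits lay near the start of another transcript. The JAZ1 summit fell beside the start of a noncoding RNA gene, AT1G05473, at −706 bp, which lies on the other strand and runs away from JAZ1. For JAZ6 the nearest start was that of the noncoding RNA gene AT1G09307 at −481 bp, and JAZ10 overlaps the start of an antisense noncoding RNA gene, AT5G02045, at 70 bp. Further peaks within 2 kb belonged by position to neighbours. JAZ5 had one at 2369 to 2406 bp in each of the 4 libraries of BCL7A and BCL7B, where UBP1B starts at 2368 bp, with percentiles of 75.5 to 80.2. The BRM peak assigned to JAZ2 had its summit at 4055 and 3908 bp in BRM, beyond the gene and toward the start of AT1G74940 at 4468 bp, and was 8618 and 8135 bp wide.

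The brm-1 lines address whether BCL7A and BCL7B occupy these genes without BRM. For BCL7A, no JAZ gene was called between BCL7A brm-1 and BCL7A. Percentiles were converted to normal scores, on which 1 unit is 1 SD of the ranks of a list, and compared across all genes with limma. Of the 9 genes tested, 0 were called higher or lower, against 0.602% of 24604 genes called higher and 0.439% called lower. An unadjusted limma p under 0.05 was found at 1 of the 9, and at 3953 of the 24604 genes. The differences ran from −0.13 (SE 0.208) at JAZ6 to 0.64 (SE 0.257) at JAZ9, and the smallest limma adjusted p was 0.236, at JAZ9. At JAZ10 the strongest peak of BCL7A brm-1 replicate 1 was another one, at −1466 bp. The JAZ9 percentiles, from the peak past the gene end, were 43.9 and 55.4 in BCL7A and 64.5 and 81.3 in BCL7A brm-1, without overlap. The weaker JAZ9 peak near the gene start lay the other way, with 41.7 and 42.6 against 12.2 and 24.9, and with only summits within 2 kb of the start the difference was −0.72 (adjusted p = 0.289). Neither of these JAZ9 peaks was called. The peak inside JAZ9 was not listed in either BCL7A brm-1 library, so it was not tested. The JAZ median difference was 0.05, against 0.02 over all genes. On log2 of the pileup over the genome background the JAZ median was −0.20, against −0.08 over all genes. The JAZ values there ran from −0.35 (JAZ7) to 0.01 (JAZ8), and 0 were called. Of 24579 genes, 1349 were called lower and 252 higher on that scale.

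For BCL7B, JAZ7 was the only tested JAZ gene called by the rank of its strongest peak, and it was lower in brm-1. Its peak at the gene start had percentiles of 78.8 and 71.7 in BCL7B and of 28.2 and 20.7 in BCL7B brm-1, with pileups of 131 and 132 against 71 and 73 fragments. Both mutant libraries lay below both BCL7B libraries on either scale. The 95% exact Poisson intervals, which cover counting error only, were 109.5 to 155 and 110.4 to 157 against 55.5 to 89.6 and 57.2 to 91.8. The difference was −1.38 (SE 0.299, limma adjusted p = 0.00510). The call was lost without BCL7B replicate 1 (adjusted p = 0.130) and without BCL7B replicate 2 (0.0580), and when genes lacking a peak were given the lowest rank (0.0536).

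In all, 1 of the 8 JAZ genes tested was called lower in BCL7B brm-1 and 0 were called higher, where 12.9% of 21882 genes were called lower and 6.81% higher. That share is close to the background of this contrast. The peak compared at JAZ10 was the one inside the gene. It had percentiles of 71.1 and 85.8 in BCL7B against 54.9 and 64.9 in BCL7B brm-1, with a difference of −0.56 (SE 0.263, limma adjusted p = 0.141). JAZ3, whose truncated form in a mutant blocks the jasmonate response, had 74.9 and 86.0 against 65.8 and 69.2, a difference of −0.42 (SE 0.244, adjusted p = 0.236). JAZ1, JAZ5 and JAZ6 had differences of −0.04 to −0.18, and JAZ2 and JAZ9 of 0.33 and 0.39, none called. The JAZ9 value again came from the peak past the gene end. With only summits within 2 kb of the start JAZ9 was at −0.64 (adjusted p = 0.276). This set the peak inside the gene in BCL7B (1139 and 1124 bp) against the start peak in BCL7B brm-1 (−43 and −140 bp). The peak inside JAZ9 was not listed in either BCL7B brm-1 library. JAZ10, counting only peaks nearest to its own start, was at 0.79 (adjusted p = 0.232). Different sites were compared there, with summits at 31 and −1475 bp in BCL7B and at −1498 and −1598 bp in BCL7B brm-1. JAZ8 could not enter this fit, since it had percentiles of 66.7 and 56.6 in BCL7B, no peak in BCL7B brm-1 replicate 1 and 12.5 in replicate 2. With the missing peak at the lowest rank, its difference was −2.87 (SE 1.03, adjusted p = 0.162).

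The scale bears on these directions. On log2 of the pileup over the genome background, which is not set to a common level between lists, the median over all genes was −0.53 in BCL7B brm-1 against BCL7B and 67.7% of genes were called lower. All 8 JAZ genes were called lower there, with a median of −0.92 (−1.33 at JAZ7 to −0.87 at JAZ5). JAZ2 and JAZ9, whose ranks were higher in the mutant, were at −0.88 each on this scale. Relative to the median of all genes, the JAZ genes ran from −0.80 (JAZ7) to −0.34 (JAZ5), with a median of −0.39. A general loss of BCL7B from chromatin and a lower enrichment of these libraries cannot be told apart in these lists.

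Several JAZ genes hold more than 1 BCL7B peak, so summits pooled over the libraries, with no gap over 150 bp between neighbouring summits, were also compared as sites, an alternative added after the data were seen. Of 12 sites with a peak in each of the 4 libraries, 3 were called lower and 1 higher in BCL7B brm-1, where 13.0% of 10451 sites were called lower and 7.14% higher. The site near the start of JAZ10, whose 4 summits spread over 226 bp, was lower, with percentiles of 11.2 and 18.6 against 0.144 and 0.304 (difference −1.81, SE 0.483, limma adjusted p = 0.0127). A site past the end of JAZ2, at 2598 bp, went from 30.3 and 31.4 to 2.47 and 0.350 (−1.83, SE 0.453, adjusted p = 0.00809). The site at 3683.5 bp from JAZ3, by the start of its neighbour TDX, was higher, with 7.43 and 7.65 against 45.5 and 56.0 (1.46, SE 0.379, adjusted p = 0.0108). The JAZ7 start site was the other that was lower.

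In BCL7A the sites were compared in the same way. Of 17 JAZ sites, 0 were called in BCL7A brm-1 against BCL7A, where 1.63% of 13403 sites were called higher and 1.14% lower. The BCL7A peak at the start of JAZ10, present in both BCL7A libraries, was not listed in either BCL7A brm-1 library, so this site was not tested. Its upstream neighbour, near −1463 bp, had percentiles of 7.91 and 36.3 in BCL7A and 65.1 and 55.7 in BCL7A brm-1 (difference 1.15, SE 0.341, limma adjusted p = 0.0632).

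Whether the brm-1 effect differs between BCL7B and BCL7A was tested as an interaction over the 8 libraries. None of the 8 JAZ genes passed, against 0.180% of 21607 genes with a higher and 0.819% with a lower effect on BCL7B. JAZ7 came closest. Its percentiles in BCL7A were 74.5 and 62.4 and in BCL7A brm-1 73.7 and 67.1, so that the interaction was −1.43 (SE 0.355, limma adjusted p = 0.0598). It passed with 3 of the 16 alternatives, with adjusted p between 0.000186 and 0.185 over all of them. Of 11 JAZ sites, 0 were called, where 0.249% of 10038 sites were called higher and 1.20% lower, and the lowest adjusted p values were 0.0524 (JAZ7 start) and 0.0551 (JAZ2 at 2605.5 bp).

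With BRM present, the homologues BCL7A and BCL7B were compared directly. None of the 9 JAZ genes tested was called, against 0.222% of 23908 genes called higher in BCL7B and 0.151% lower. An unadjusted limma p under 0.05 was found at 0 of the 9, and at 3112 of the 23908 genes. Differences ran from −0.25 (SE 0.205) at JAZ3 to 0.36 (SE 0.231) at JAZ10, and the smallest limma adjusted p was 0.527. Counting only peaks nearest to its own start, JAZ10 was at −1.24 (adjusted p = 0.143). That setting mixed its sites, with summits at 29 and −1460 bp in BCL7A and at 31 and −1475 bp in BCL7B. The SEs of the differences by strongest peak ran from 0.193 to 0.301, which limits the size of difference that 2 against 2 libraries could show. On the pileup scale all genes had a median of 0.16, and 4 JAZ genes (JAZ1, JAZ5, JAZ6 and JAZ10) were called higher in BCL7B, where 19.3% of genes were. JAZ6, for which the rank difference was −0.06, was at 0.48 on that scale (adjusted p = 0.00338), or 0.32 relative to the median.

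**Figure D2:**
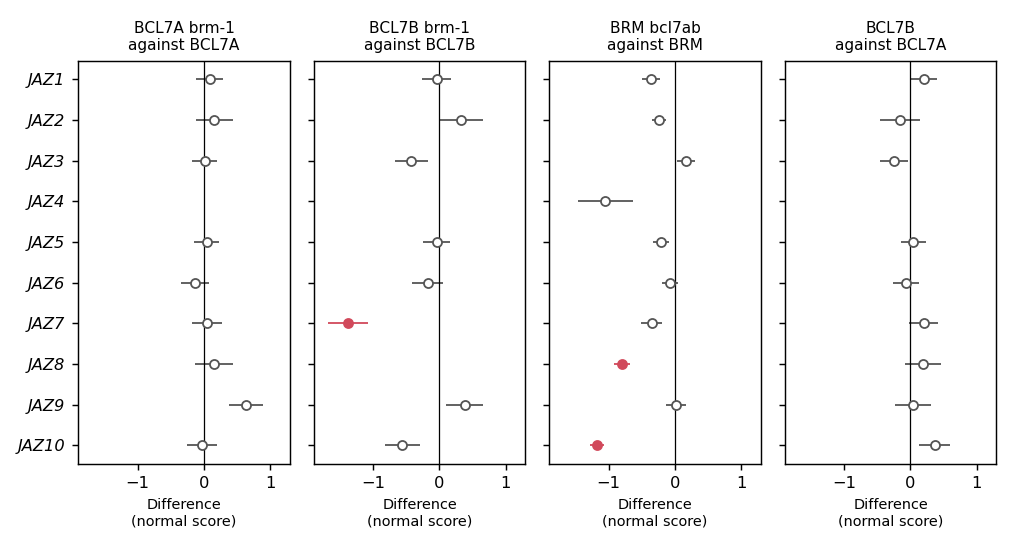
Difference in normal score of the percentile rank (x axis, circles, with bars of 1 SE from limma, 2 against 2 libraries) for each JAZ gene in 4 comparisons. Filled red circles have an adjusted p at or under 0.05: JAZ7 in BCL7B brm-1 (−1.38), and JAZ8 (−0.80) and JAZ10 (−1.18) in BRM bcl7ab. Genes without a peak in each of the 4 libraries have no circle.

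BRM occupancy in bcl7ab was lower at JAZ10 and JAZ8. At JAZ10 the percentiles were 99.9 and 99.9 in BRM and 97.4 and 96.1 in BRM bcl7ab, and the pileups were 320 and 331 against 180 and 200 fragments. Both mutant libraries lay below both BRM libraries, and the counting intervals (286 to 357 and 296 to 369, against 155 to 208 and 173 to 229.7) did not overlap. The difference was −1.18 (SE 0.110, limma adjusted p = 0.00579), or −0.84 in log2 pileup over background (SE 0.0755, adjusted p = 0.00228). It kept its call in 10 of 11 alternatives and lost it when genes lacking a peak were given the lowest rank (adjusted p = 0.0828).

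At JAZ8, percentiles of 93.6 and 91.3 in BRM stood against 75.8 and 72.2 in BRM bcl7ab, with pileups of 143 and 139 against 86 and 97 fragments. The groups did not overlap on either scale. The difference was −0.80 (SE 0.124, limma adjusted p = 0.0368). This call was less firm, since it was lost in 5 of 12 alternatives. Its adjusted p was 0.141 without BRM replicate 1, 0.0760 without BRM replicate 2, 0.0510 without BRM bcl7ab replicate 2, 0.110 with the replicate number as a block, and 0.129 with missing peaks at the lowest rank.

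In all, 2 of 10 JAZ genes were called lower and 0 higher, against 0.539% of 20960 genes called lower and 0.444% higher. An unadjusted limma p under 0.05 was found at 4 of the 10, and at 4160 of the 20960 genes. On the pileup scale the same number, 2, were called lower, where 0.681% of genes were. Relative to the median of all genes, the JAZ genes ran on that scale from −0.80 (JAZ10) to 0.12 (JAZ3). Of 4 JAZ sites with a summit in each of the 4 libraries, those of JAZ8 and JAZ10 were called lower and 0 higher, where 2.62% of 7509 sites were called lower and 2.49% higher. By ranks of the strongest peak the JAZ median was −0.30 and that of all genes −0.05, and 8 of the 10 differences were below 0. The share of all genes below 0 was not determined. JAZ4 had 41.5 and 60.7 against 5.84 and 31.7, without overlap, but with an SE of 0.417 its difference of −1.05 was not called (limma adjusted p = 0.219). JAZ1 (−0.36, adjusted p = 0.204), JAZ7 (−0.35, 0.263) and JAZ2 (−0.24, 0.260) were not called either. JAZ3, JAZ6 and JAZ9 differed by 0.16, −0.08 and 0.01.

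**Figure D3:**
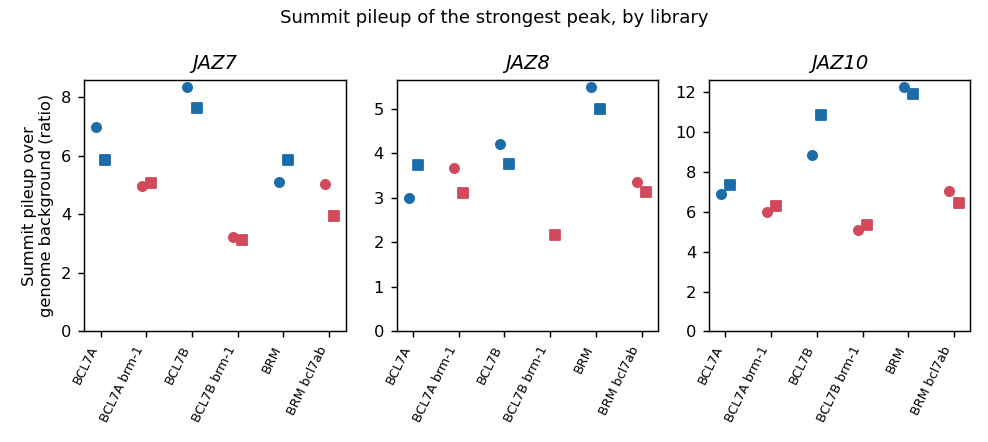
Summit pileup of the strongest peak divided by the genome background of its list (y axis, ratio, starting at 0) at JAZ7, JAZ8 and JAZ10, for the 6 groups (x axis). Each point is 1 library (circle replicate 1, square replicate 2), red where the further mutation was added. At JAZ10, BRM stands at 12.3 and 11.9 and BRM bcl7ab at 7.04 and 6.47. At JAZ7, BCL7B stands at 8.34 and 7.63 and BCL7B brm-1 at 3.24 and 3.11, and 1 point is missing at JAZ8 because that library lists no peak.

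Where BRM summits lay also differed in bcl7ab, most at JAZ1, JAZ5 and JAZ6. At JAZ1 the BRM summit was at 505 and 515 bp, in the 5′ UTR, in BRM and at −658 and −648 bp in BRM bcl7ab. At JAZ5 it was at 498 and 583 bp, in a coding exon, against −405 and −414 bp. For JAZ6 it was at 472 and 478 bp, also in a coding exon, against −249 and −257 bp. At each of these genes the bcl7ab summits were upstream of the gene start and those of BRM inside the gene.

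Smaller distances in the same direction were seen at JAZ7 (209 and 273 bp against 127 and 80 bp), JAZ8 (171 and 137 bp against 54 and 59 bp) and JAZ10 (512 and 458 bp against 288 and 318 bp). JAZ2, a close relative of JAZ1, JAZ5 and JAZ6, differed in the other direction. Its summit beyond the gene went further away, from 4055 and 3908 bp to 4461 and 4469 bp, which is within 7 bp of the start of AT1G74940. The summits of JAZ3 (−60 and −42 bp against −79 and −31 bp), JAZ4 and JAZ9 overlapped between the groups.

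In all, both bcl7ab summits lay upstream of both BRM summits at 6 of 10 JAZ genes, against 21.9% of the 20960 genes with a peak in the 4 libraries, and downstream at 1, against 17.7%. The gap was 500 bp or more upstream at 3 of 10, against 3.50% of genes. Wide peaks leave more room for a summit to lie elsewhere. Among genes with BRM peaks of 3000 bp or more, 24.3% had bcl7ab summits upstream (4 of 7 JAZ genes), 6.87% with such a gap (3 of 7), and 21.8% downstream (1 of 7). These rules were chosen after the positions were seen, so the counts are a description. The planned measure, the median summit position over the 10 genes, was 419.5 and 468 bp in BRM and 90.5 and 69.5 bp in BRM bcl7ab (exact two-sided permutation test, p = 0.333, the smallest that 2 against 2 libraries allow).

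In bcl7ab the BRM summits of JAZ1, JAZ5 and JAZ6 lay where BCL7A and BCL7B summits lay in the other lines. How often BRM summits lie this near a BCL7A or BCL7B summit over all genes was not determined. At JAZ1 the median distance to the nearest BCL7A or BCL7B summit over 4 libraries was 1220 and 1230 bp for the BRM libraries and 57 and 67 bp for BRM bcl7ab. At JAZ5 it was 909.5 and 994.5 bp against 18.5 and 12 bp, and at JAZ6 798.5 and 804.5 bp against 77.5 and 69.5 bp. At JAZ3 the summits of all 3 proteins were close in every case, with 55 and 73 bp against 36 and 84 bp. At JAZ2 the distance was larger in bcl7ab, with 1449.5 and 1302.5 bp against 1855.5 and 1863.5 bp. JAZ9 had 293.5 and 305.5 bp against 85.5 and 270.5 bp, and the distances at JAZ7, JAZ8 and JAZ10 were smaller in bcl7ab too. The BRM peaks at JAZ1, JAZ5 and JAZ6 were 4494 to 6538 bp wide and each list gives 1 summit per peak, so the level at the other position within the same peak is not given. For BCL7A and BCL7B, the median summit position of the JAZ genes did not separate with brm-1. It was −25 and −96 bp against −89 and −11 bp for BCL7A (exact permutation p = 0.667) and −95 and −80.5 bp against −51.5 and −195.5 bp for BCL7B (exact permutation p = 1).

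**Figure D4:**
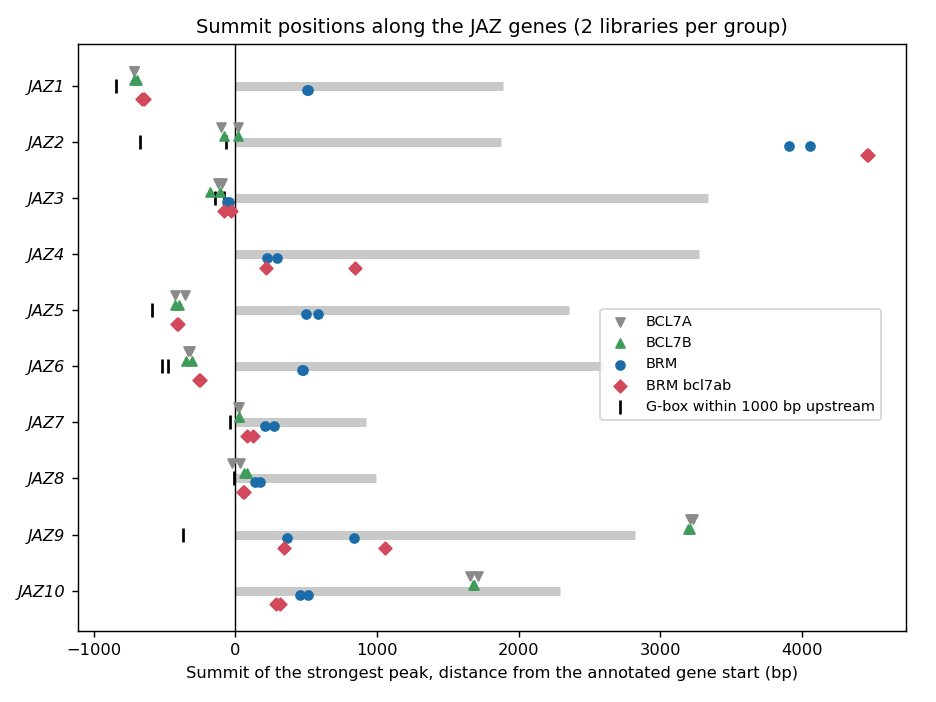
Summit of the strongest peak along each JAZ gene (x axis, bp from the annotated gene start, negative upstream), with 2 libraries per group, grey bars for the gene bodies and black ticks for G-boxes within 1000 bp upstream. At JAZ1, JAZ5 and JAZ6 the BRM summits (blue circles) sit inside the gene and the BRM bcl7ab summits (red diamonds) sit upstream beside those of BCL7A and BCL7B (triangles). At JAZ2 the BRM summits sit past the gene end.

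The rest of the jasmonate pathway was described by 43 further genes in 5 lists. In BCL7B brm-1 against BCL7B, 7 of the 36 tested were called, or 19.4%, and 19.7% of all genes were called in this comparison, so the share is that of the background. Of the other JAZ and TIFY genes, JAZ13, another EAR-motif repressor, was higher (98.4 and 98.7 against 99.7 and 99.9, difference 0.69, SE 0.165, limma adjusted p = 0.00889), 1 of 4 tested. Among 10 tested genes for the receptor, corepressors and transcription factors, 1 was lower, the flower regulator MYB21 (difference −0.62, SE 0.173, adjusted p = 0.0186). Of 14 tested synthesis genes, 3 were lower. These were OPCL1 (−0.84), a CoA ligase of jasmonate synthesis, DAD1 (−0.91), a lipase, and JAR1 (−0.68), which joins jasmonate to isoleucine. Of 8 tested turnover genes, CYP94B3 (−0.68), which hydroxylates the conjugate, and IAR3 (−1.22), which cleaves it, were lower. Summits lay far upstream at JAZ13 (−1846 to −1827 bp), MYB21 (−1843 to −1795 bp) and JAR1 (−1808 to −1725 bp). Whether those peaks belong to neighbouring genes was not examined. The other called genes of this comparison had summits from −581 to 133 bp. In BRM bcl7ab against BRM, 2 of the 38 genes tested were called, both lower, where 0.539% of all genes were called lower and 0.444% higher. They were OPR3, a reductase of the synthesis pathway (97.6 and 97.8 against 91.1 and 89.9, difference −0.68, SE 0.0998, adjusted p = 0.0325), and CYP94C1, an oxidase of turnover (99.5 and 99.4 against 96.5 and 97.5, difference −0.66, SE 0.104, adjusted p = 0.0368). No gene of these lists was called in the other comparisons, and the response markers VSP1 and VSP2 had too few peaks to be tested.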

How the data were processed

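ChIP-seq peak lists of 12 libraries were used, with 2 replicates in each of 6 groups, and 8 of the 20 samples of the series were not analysed here. Reads had been aligned to TAIR10 with Bowtie 2, and the authors called peaks in each library with MACS2 (version 2.1.1). Per the deposited lists, the fold column is the ratio of pileup to background at the summit, and the authors also gave −log10 p and −log10 q for each peak. The authors' deposited display score of each peak, a whole-number multiple of −log10 q, was not used. Whole-number pileups were recovered from the fold and −log10 p values in at least 99.8% of peaks, within a misfit of 0.01 and for −log10 p up to 250. The total read depth of a library is not given in the lists, so counting intervals rest on the pileup.

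A peak belonged to a gene when it overlapped the gene or the 2 kb on either side, and the strongest such peak by fold stood for the gene. Its percentile rank within the list was turned into a normal score and fitted over all genes with a peak in each library by limma (version 3.58.1, R 4.3.3, empirical Bayes with a trend). P-values were adjusted by Benjamini-Hochberg over all genes, with a threshold of 0.05. They measure only the spread between 2 replicates per group. For each gene that spread was moderated toward a trend fitted over all genes. Python 3.11.15, numpy 2.4.6, pandas 2.3.3, scipy 1.17.1 and matplotlib 3.10.9 did the rest, and the fit was tested on simulated data. All 10 JAZ genes are named, of other jasmonate genes those that passed, and neighbours whose start lay nearer to a described peak. The rule for the members used names alone, but the family and the lists were chosen with earlier results of these data known. Alternatives changed the window, the assignment to genes, the −log10 q limit, the scale, the treatment of missing peaks, the replicate block and the libraries. The number of value columns left unmapped was 0.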

Additional observations from a re-analysis of the deposited data

How the results depend on the processing

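Of 546 values of single JAZ genes under the alternatives, 49 had the other sign, 12 of them on the log2 pileup scale and 27 without 1 library. The called differences of JAZ7, JAZ8 and JAZ10 kept their sign. Past the threshold with the other sign were JAZ2 (−0.88) and JAZ9 (−0.88) in BCL7B brm-1, JAZ6 (0.48) in BCL7B against BCL7A and JAZ2 (−0.57) in the interaction, all by pileup. Without a call on either side, JAZ9 by summits within 2 kb of the start was at −0.72 (BCL7A brm-1) and −0.64 (BCL7B brm-1). JAZ10 by nearest start was at 0.58 and 0.79 in the same comparisons and, in BCL7B against BCL7A, at −1.24. Those settings compare other peaks of the gene, and all but the −0.72 of JAZ9 compare summits at different sites. Counting only peaks whose nearest gene start is the gene's own, 6 of 10 JAZ genes had a BRM peak in both bcl7ab libraries, and the median BRM summit difference was −169.75 bp. It was −418.5 bp with −log10 q of 5 or more, against −363.75 bp.

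The number of genes called over the whole table moved more. For BCL7A brm-1 (256) it was 1601 on the pileup scale, 0 in limma with missing peaks at the lowest rank (3934 at an unadjusted p under 0.05), and 38 to 564 without 1 library. For BCL7B brm-1 (4307) it was 1996 by nearest start, 14886 by pileup, 1056 with missing peaks at the lowest rank, 2103 by summit sites and 1021 to 4590 without 1 library. For BRM bcl7ab (206) it was 422 by summits within 2 kb of the start, 386 with −log10 q of 5 or more, 4 with missing peaks at the lowest rank, 384 by summit sites and 114 to 337 without 1 library. For BCL7B against BCL7A (89) it was 53 within 1 kb, 40 by summits near the start, 31 by nearest start, 4692 by pileup, 6 with missing peaks at the lowest rank, 36 by summit sites and 53 to 354 without 1 library. For the interaction (216) it was 124, 127, 1247 on the log2 fold scale, 10795 by pileup, 398 with missing peaks at the lowest rank and 1 to 698 without 1 library. The cause was not tested. A lone library left in a group was assumed to vary like the others.

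The share of calls that were higher was 57.8% for BCL7A brm-1 and 15.7% by pileup, 34.6% for BCL7B brm-1 with 19.3% by log2 fold and 0.699% by pileup, 59.6% for BCL7B against BCL7A with 78.1% and 98.5%, and 18.1% for the interaction with 7.30% and 0.296%. Replicate numbers are shared between groups without any stated pairing, and the correlations of replicate differences ran from −0.014 to 0.015. With the replicate number as a block the counts were 250, 5028, 44, 694 and 215 in the order above. The block ended the call of JAZ8 in BRM bcl7ab and no other JAZ call.

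Peaks listed at the edge of detection limit the weakest sites, and peaks several kb wide are shared with neighbouring genes.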
